A study of Mus musculus with 8 samples.

Results

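The 10 genes described here belong to the bone and cartilage lineages: Runx2, Sp7, Dlx5, Msx2, Alpl, Ibsp and Spp1 of bone, and Sox9, Acan and Comp of cartilage. They were taken by name, with earlier results of these data known, from the 19259 genes that the array's RefSeq transcript identifiers pair with a symbol. Of the array's 37246 measured probes, 13 belong to them. Runx2 has 3 of these probes, Dlx5 has 2, and each other gene has 1. All 13 cleared the filter on dim probes and entered the tests. RNA came from mouse embryonic fibroblasts (MEFs, mixed connective tissue cells grown from embryos) of littermates, Atm-/- or Atm+/+, where Atm encodes the kinase that signals DNA double-strand breaks. Cultures of each genotype were untreated (0 h) or harvested 4, 8 and 24 h after treatment with neocarzinostatin (NCS), an antibiotic that cuts both DNA strands as ionizing radiation does. The study set out to follow long noncoding transcripts after DNA damage. Every group has 1 array, 8 in all, and all cultures shared the same serum-containing medium on several dishes for each line. The labels give no number of embryos or lines. The p-values below therefore rest only on how the difference between genotypes varies over the time points. That variation may be technical or a difference of response.

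In the skeleton, RUNX2 commits mesenchymal progenitors to the osteoblast lineage and SP7 (osterix) acts downstream of it, while the homeodomain proteins DLX5 and MSX2 act in the same progenitors under the control of bone morphogenetic proteins (BMPs). Maturing osteoblasts make tissue-nonspecific alkaline phosphatase (Alpl), bone sialoprotein (Ibsp) and osteopontin (Spp1). SOX9 directs progenitors to cartilage instead, whose matrix holds aggrecan (Acan) and cartilage oligomeric matrix protein (Comp).

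RefSeq promoters were matched for 6 of the 10 members and are shown because 3 of these genes, Ibsp, Alpl and Acan, had their highest levels on the same array, whereas Spp1, Msx2 and Runx2 did not. Each window runs from 250 bases before to 50 bases after an annotated RefSeq transcript start on assembly GRCm38.p6, in the direction of transcription. Alpl and Spp1 have a pair of listed starts each, and the second of Spp1 is not shown. Capitals mark matches on either strand to a RUNX motif (TGTGGT), a SOX motif (ATTGTT), a homeodomain motif (TAATTA, its own reverse complement), a GC box (GGGCGG) or a TATA box (TATAAA).
Ibsp, chr5:104299037-104299336, plus strand: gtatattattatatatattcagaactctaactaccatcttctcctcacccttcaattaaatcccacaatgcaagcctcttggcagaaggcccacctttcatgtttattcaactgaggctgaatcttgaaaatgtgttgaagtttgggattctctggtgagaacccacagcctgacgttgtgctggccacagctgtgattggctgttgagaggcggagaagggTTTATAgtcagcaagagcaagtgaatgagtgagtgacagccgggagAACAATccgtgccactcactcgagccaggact
Alpl, first listed start, chr4:137796335-137796634, minus strand: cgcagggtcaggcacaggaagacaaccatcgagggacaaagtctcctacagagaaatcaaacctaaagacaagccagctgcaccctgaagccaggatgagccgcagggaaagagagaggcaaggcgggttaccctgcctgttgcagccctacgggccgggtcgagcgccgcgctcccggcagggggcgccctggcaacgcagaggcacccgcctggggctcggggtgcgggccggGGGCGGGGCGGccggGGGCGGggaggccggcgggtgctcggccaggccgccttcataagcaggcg
Alpl, second listed start, chr4:137766426-137766725, minus strand: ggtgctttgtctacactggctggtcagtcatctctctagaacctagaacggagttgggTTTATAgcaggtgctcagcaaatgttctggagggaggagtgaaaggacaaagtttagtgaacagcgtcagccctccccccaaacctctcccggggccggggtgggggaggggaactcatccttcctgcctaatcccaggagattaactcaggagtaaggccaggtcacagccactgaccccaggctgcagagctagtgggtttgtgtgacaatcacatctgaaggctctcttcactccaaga
Acan, chr7:79052976-79053275, plus strand: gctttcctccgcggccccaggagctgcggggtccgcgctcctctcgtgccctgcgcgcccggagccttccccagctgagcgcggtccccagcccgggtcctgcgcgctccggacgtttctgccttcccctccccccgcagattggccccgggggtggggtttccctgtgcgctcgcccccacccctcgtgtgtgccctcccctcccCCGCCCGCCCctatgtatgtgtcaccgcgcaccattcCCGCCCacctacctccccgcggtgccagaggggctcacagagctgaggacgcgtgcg
Spp1, first listed start, chr5:104434861-104435160, plus strand: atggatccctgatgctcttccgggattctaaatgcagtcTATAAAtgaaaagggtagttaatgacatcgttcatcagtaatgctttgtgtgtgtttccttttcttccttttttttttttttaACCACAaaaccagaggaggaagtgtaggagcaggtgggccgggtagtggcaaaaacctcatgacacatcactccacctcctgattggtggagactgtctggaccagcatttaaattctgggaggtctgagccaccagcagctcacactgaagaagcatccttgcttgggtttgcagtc
Msx2, chr13:53472731-53473030, minus strand: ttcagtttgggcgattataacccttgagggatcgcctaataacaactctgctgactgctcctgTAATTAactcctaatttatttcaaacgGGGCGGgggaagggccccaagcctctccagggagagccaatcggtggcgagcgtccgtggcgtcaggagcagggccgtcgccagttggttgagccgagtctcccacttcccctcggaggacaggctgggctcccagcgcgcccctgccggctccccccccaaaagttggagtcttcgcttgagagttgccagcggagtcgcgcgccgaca
Runx2, chr17:44814578-44814877, minus strand: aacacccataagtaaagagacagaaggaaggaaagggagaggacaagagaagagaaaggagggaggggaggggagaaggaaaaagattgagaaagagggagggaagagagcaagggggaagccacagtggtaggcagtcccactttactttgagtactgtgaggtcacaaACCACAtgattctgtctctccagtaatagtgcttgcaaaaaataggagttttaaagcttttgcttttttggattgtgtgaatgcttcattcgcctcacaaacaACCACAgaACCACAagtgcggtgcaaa

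The Ibsp window holds a TATA match 28 bases before the start on the opposite strand, and this promoter is known for an inverted TATA box. It also holds a SOX match on the opposite strand from base 19 of the transcript and 0 GC boxes. The first Alpl window and the Acan window hold 3 GC boxes each, of which 2 overlap and appear as 1 run of capitals. The second Alpl window holds a TATA match 192 bases before its start. Spp1 holds a RUNX match 128 bases and a TATA match 211 bases before the start, and the Runx2 window holds 3 RUNX matches. Msx2 holds a homeodomain match 187 bases and a GC box 160 bases before the start. Among 32851 promoters of the same length, 16.8% hold the RUNX motif, 10.7% the SOX motif, 5.29% the homeodomain motif, 35.7% the GC box and 13.6% the TATA box. These matches are descriptions of the letters and were not tested as binding sites.

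Each genotype filled its own slide and each time point its own array position, so genotype cannot be told apart from slide, nor response to NCS from position or time in culture. Y-linked Ddx3y, Eif2s3y, Uty and Kdm5d were well above background on 0 Atm-/- arrays, against 3 or 4 Atm+/+ arrays, and Xist on 4 Atm-/- arrays and 1 Atm+/+ array, so genotype cannot be told apart from embryo sex either. Of the non-control spots, 57.0% to 61.1% were well above background per array, and 49 to 1560 were marked as outliers, the most on the Atm+/+ 24 h array. Atm had log2 levels of -3.67 to -3.15 on the Atm-/- arrays and -2.43 to -1.95 on the Atm+/+ arrays. Of 9 fibroblast markers, 9 were well above background on each Atm-/- array and 8 or 9 on each Atm+/+ array. The number of arrays limits the precision of every value.

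Levels are log2 of the background-subtracted signal relative to the 75th percentile of the same array, so a level of 0 lies at that percentile. A probe that the scanner software did not mark as well above background is called dim, and for it the fold is a lower bound, computed against the lowest signal well above background on that array or the probe's own, whichever is higher. Levels of different probes are not set against each other.

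**Figure D1:**
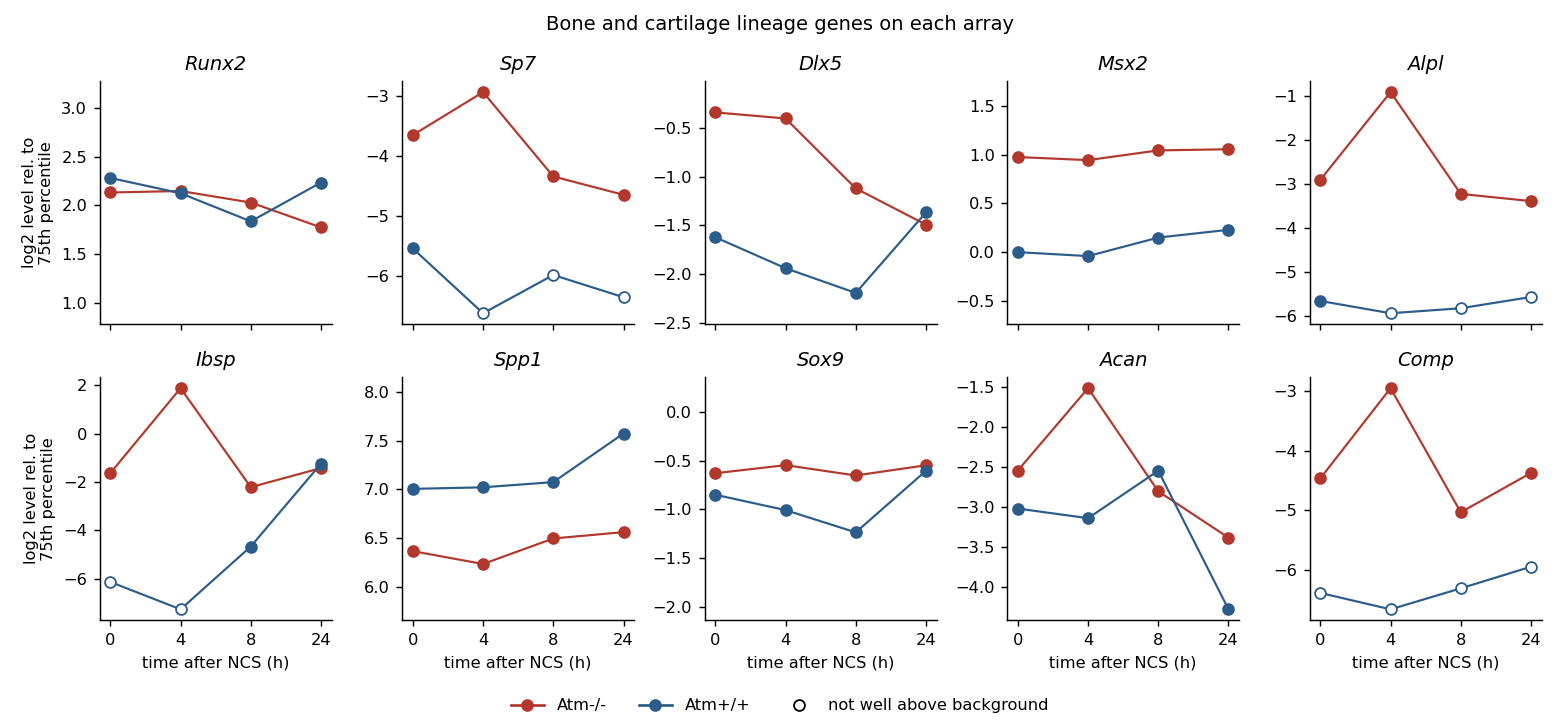
Log2 level of each member's probe (y axis, relative to the array's 75th percentile) against hours after NCS (x axis), 1 point per array, Atm-/- in red and Atm+/+ in blue, with open points where the probe was not well above background. Alpl, Sp7, Ibsp, Sox9, Acan and Comp are highest on the Atm-/- 4 h array, where Sox9 exceeds its Atm-/- 24 h value by only 0.0011. The lines of the genotypes do not meet for Msx2, Spp1 and Sox9. They do not meet for Alpl, Sp7 and Comp either, whose Atm+/+ points are mostly or all open.

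Between genotypes, Msx2 was higher and Spp1 lower in Atm-/- among the 6 members measured well above background on all 8 arrays, at an adjusted p under 0.05 by limma's moderated test with time point as a term. In probes this was 2 of 9, beside 14.1% of the 18499 probes measured as fully (6.8% higher and 7.32% lower). The same 2 of the 6 genes had Atm-/- and Atm+/+ values that did not overlap, beside 17.7% of those probes. The median difference of the 6 genes was 0.51, against 0.01 over those probes. The members were chosen with earlier results of these data known, so these counts and this median are descriptions only. Alpl, Sp7, Comp and Ibsp were dim on 2 to 4 Atm+/+ arrays. Alpl, Sp7 and Comp cleared the 2-array filter through the Atm-/- arrays, so a difference was built into their entry and no count is read from them. With them, 5 of 13 member probes were called (14.7% of all 23292 probes tested, 7.28% higher and 7.38% lower), and 9 of 13 had an unadjusted p under 0.05, beside 31.9% of all probes. With no filter on dim probes, the adjusted p was 0.0376 for Alpl and 0.0444 for Sp7, and Comp did not pass (0.0637). In these bulk cultures, fewer cells of a lineage and less RNA per cell cannot be told apart.

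Runx2, the first factor of the osteoblast lineage, had levels of 2.13, 2.15, 2.03 and 1.77 in Atm-/- at 0, 4, 8 and 24 h (transcript NM_001145920), against 2.28, 2.12, 1.84 and 2.23 in Atm+/+. The genotypes overlapped, with Atm-/- higher at 2 of 4 time points, and the fitted difference was -0.10 ± 0.12 (SE, adjusted p = 0.621). The other probes, for NM_009820 and NM_001146038, gave -0.10 and -0.18.

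Sp7, the zinc finger factor that acts after Runx2, had levels of -3.66, -2.94, -4.35 and -4.65 in Atm-/-, against -5.55, -6.63, -5.99 and -6.36 in Atm+/+, where it was well above background at 0 h only. All Atm-/- values lay above all Atm+/+ values. The difference was 2.23 ± 0.38 (adjusted p = 0.0222), or 1.78 with dim values raised to their floor, a fold of at least 3.44. As the probe entered this filtered fit through the Atm-/- arrays, the adjusted p with no filter, 0.0444, is the one to read. Dim Atm+/+ values entered that fit as measured, and it was not repeated with a time point left out. At 0 h, where both arrays measured it, Sp7 was 3.70-fold higher in Atm-/-, a ratio reached by 39 of 21410 probes. The filtered fit did not pass without the 0 h arrays (adjusted p = 0.0779) or without the 8 h arrays (0.0687). The difference was 1.30 with normexp background correction and quantile scaling together.

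Msx2, a homeodomain repressor of the early lineage, had levels of 0.98, 0.94, 1.04 and 1.06 in Atm-/-, against 0.00, -0.04, 0.15 and 0.23 in Atm+/+. Each array was well above background, and the groups stood apart by a gap of 0.72. The difference was 0.92 ± 0.07 (adjusted p = 0.00326), a 1.89-fold higher level, and the ratio was between 1.78-fold at 24 h and 1.98-fold at 4 h. Msx2 was the only member called under every alternative of scaling, filter and time points that was run.

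Dlx5, an activator of the osteoblast program, had levels of -0.34, -0.40, -1.12 and -1.49 in Atm-/- (transcript NM_198854), against -1.62, -1.94, -2.19 and -1.37 in Atm+/+. It was 2.43-, 2.91- and 2.11-fold higher in Atm-/- at 0, 4 and 8 h but 0.916-fold at 24 h, where the genotypes met. The fitted difference of 0.94 ± 0.29 did not pass (adjusted p = 0.0942), nor did 1.01 for the probe of NM_010056 (0.0965). Without the 24 h arrays, the time point where Atm-/- was not higher, the difference for NM_198854 was 1.30 and passed (adjusted p = 0.0101). It did not pass without the 0 h (0.265), 4 h (0.269) or 8 h arrays (0.234) in the same limma fit. Of 6 noncoding neighbours listed, 2 were on the array, both near Dlx genes. Dlx6os1 was well above background on 0 arrays. Dlx1as, named after a Dlx gene that is not a member, was higher in Atm-/- by 0.96 ± 0.14 (adjusted p = 0.0159), but its genotypes overlapped.

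**Figure D2:**
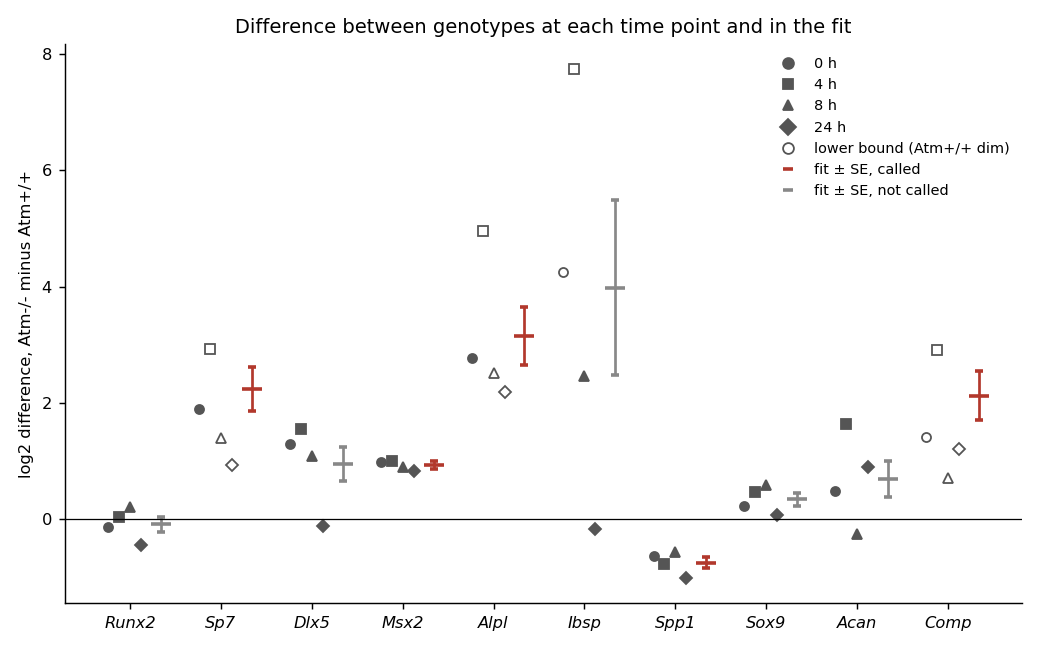
Log2 difference of Atm-/- minus Atm+/+ (y axis) for each member (x axis): grey symbols give single time points, open where the Atm+/+ array was dim and the value is a lower bound, and bars give the fitted difference ± SE, red where the adjusted p was under 0.05 (Alpl, Sp7 and Comp entered through the Atm-/- arrays). Msx2 and Spp1 have tight points on opposite sides of 0, whereas the points of Ibsp run from -0.18 at 24 h to at least 7.74 at 4 h.

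Alpl, the phosphatase that frees phosphate for mineral, had levels of -2.91, -0.91, -3.23 and -3.39 in Atm-/-, against -5.67, -5.95, -5.83 and -5.58 in Atm+/+, where it was well above background at 0 h only. The groups did not overlap, and the gap between them was 2.19. The difference was 3.15 ± 0.49 (adjusted p = 0.0182), or at least 8.59-fold with dim values raised. As the probe entered this filtered fit through the Atm-/- arrays, the adjusted p with no filter, 0.0376, is the one to read. Dim Atm+/+ values entered that fit as measured, and it was not repeated with a time point left out. The ratio was 6.78-fold at 0 h and at least 31.0-fold at 4 h, at least 5.69-fold at 8 h and at least 4.55-fold at 24 h. The filtered fit did not pass without the 0 h arrays (adjusted p = 0.0701) or without the 8 h arrays (0.0686). The difference was 1.92 with normexp and quantile scaling together (adjusted p = 0.0265, same filter).

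Ibsp, which nucleates mineral and marks mature osteoblasts, had the widest range of the members. Its levels were -1.64, 1.88, -2.22 and -1.43 in Atm-/-, against -6.14, -7.27, -4.67 and -1.24 in Atm+/+, where it was dim at 0 and 4 h. Atm-/- was higher by at least 19.0-fold at 0 h, at least 214-fold at 4 h and 5.48-fold at 8 h, and stood at 0.880-fold at 24 h, so the groups overlapped. The fitted difference of 3.98 ± 1.51 did not pass (adjusted p = 0.146), and it was 2.26 without the 4 h arrays and 5.37 without the 24 h arrays.

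Spp1, an acidic matrix phosphoprotein that macrophages make too, was the only member called lower. Its levels were 6.36, 6.23, 6.49 and 6.56 in Atm-/-, against 7.0, 7.02, 7.07 and 7.57 in Atm+/+. The groups did not overlap, and the difference was -0.76 ± 0.10 (adjusted p = 0.0106), a ratio of 0.593. The call was lost without the 0 h arrays (adjusted p = 0.0519) and without the 4 h arrays (0.0625). Macrophage markers moved with it: 8 of 8 tested were called lower in Atm-/- (median -1.32), beside 7.38% of all probes tested. Their summed level was 12.4 to 20.1 on the Atm-/- arrays and 28.4 to 47.5 on the Atm+/+ arrays. Ptprc, the pan-leukocyte marker, was well above background on 0 Atm-/- arrays and 1 Atm+/+ array. Of the 7 osteoclast markers 3 were tested, and 1, the collagen-degrading protease Ctsk, was lower in Atm-/- (-0.57 ± 0.10, adjusted p = 0.0245), while Ocstamp, Dcstamp and Atp6v0d2 were well above background on 0 arrays. The part of these cells in the Spp1 difference was not tested.

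Sox9, the first factor of the cartilage lineage, had levels of -0.63, -0.55, -0.65 and -0.55 in Atm-/-, against -0.85, -1.01, -1.24 and -0.60 in Atm+/+. It was higher in Atm-/- at 4 of 4 time points, by 1.04-fold at 24 h to 1.5-fold at 8 h, and the groups overlapped slightly. The difference of 0.33 ± 0.11 did not pass (adjusted p = 0.113).

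Acan, the large proteoglycan that gives cartilage its stiffness, had levels of -2.54, -1.51, -2.80 and -3.38 in Atm-/-, against -3.02, -3.14, -2.54 and -4.27 in Atm+/+. The ratio ran from 0.836-fold at 8 h to 3.08-fold at 4 h, and the groups overlapped. The difference of 0.68 ± 0.31 did not pass (adjusted p = 0.20), and without the 4 h arrays it was 0.37.

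Comp, a pentameric matrix glycoprotein of cartilage and tendon, had levels of -4.46, -2.95, -5.03 and -4.37 in Atm-/-, against -6.39, -6.66, -6.31 and -5.95 in Atm+/+. It was well above background on 4 Atm-/- arrays and on 0 Atm+/+ arrays. The fold was at least 2.95 with the Atm+/+ values at their floor, from at least 1.63-fold at 8 h to at least 7.54-fold at 4 h. The measured difference was 2.12 ± 0.42, and it was 1.02 with normexp and quantile scaling together. Its adjusted p is 0.0637 with no filter, and as the probe entered the filtered fit through the Atm-/- arrays alone, no call is made of it. Of the tendon markers Scx, Tnmd, Mkx, Tnc and Thbs4, limma called 0 of 5, beside 14.7% of all probes tested. At an unadjusted p under 0.05 there was 1, and the median difference was -0.05.

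No member passed in any comparison of treated with untreated arrays, with genotype as a term. Of the 13 member probes 0 were called at 4 h (0.107% of all probes), 0 at 8 h (0.258%), 0 at 24 h (2.55%) and 0 over the 3 treated times together (0.207%). The difference of response between genotypes called 0 member probes, beside 0.0% of all probes. At an unadjusted p under 0.05 the counts in limma were 0 at 4 h, 0 at 8 h, 1 at 24 h, 0 over the treated times and 0 for the difference of response, beside 4.05%, 11.7%, 26.2%, 13.8% and 2.46% of all probes. The 1 probe was Spp1 at 24 h, with a difference of 0.38 ± 0.14 (adjusted p = 0.167), which did pass when arrays were scaled to equal quantiles. So the member count at 24 h lies under the share of all probes. On single arrays, Spp1 at 24 h stood at 1.15 times its 0 h level in Atm-/- and at 1.48 times in Atm+/+. Of 8 macrophage markers tested at 24 h, 2 were called higher, Adgre1 (1.58 ± 0.19, adjusted p = 0.0485) and Lyz2 (1.30 ± 0.12, 0.0438). The other macrophage markers were not called. Of 3 osteoclast markers tested, 1 was called higher, the osteoclast and macrophage phosphatase Acp5 (0.92 ± 0.11, 0.0453). The part of the cells with these markers in the Spp1 value was not tested. Every call at 24 h was lost without the 4 h arrays, without the 8 h arrays or with no filter on dim probes, where 0 of all probes were called. These comparisons share the 0 h arrays.

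The single arrays behind these means went separate ways. In Atm-/-, Ibsp stood at 11.4 times its 0 h level at 4 h, a ratio reached by 8 of 21873 probes, and at 0.668 times at 8 h. Alpl stood at 4.00 times its 0 h level at 4 h and at 0.800 times at 8 h. Comp reached 2.86 times and Acan 2.04 times the 0 h level at 4 h, and Sp7 reached 1.64 times. Thus 4 of 10 members were at least 2-fold higher on the Atm-/- 4 h array than on the Atm-/- 0 h array, beside 0.654% of probes well above background on both. At 8 h 0 of 10 were, beside 0.762% of probes. Of the 4 higher at 4 h, Alpl and Comp cleared the filter through the Atm-/- arrays, and Ibsp was dim in Atm+/+ at 0 and 4 h. Only Acan was well above background on all 8 arrays. The members were also chosen with earlier results of these data known, so the count is a description only. Runx2, Dlx5, Msx2, Spp1 and Sox9 lay between 0.913 and 1.06 times their 0 h levels on that 4 h array.

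In Atm+/+, 0 of the 6 members measured on both arrays were at least 2-fold higher at 4, 8 or 24 h, beside 0.728%, 1.38% and 1.88% of probes. Ibsp was dim at 0 and 4 h, then at least 2.31 times the 0 h level at 8 h and at least 24.9 times at 24 h. Its 24 h levels were -1.43 in Atm-/- and -1.24 in Atm+/+. Acan at 24 h stood at 0.559 times its 0 h level in Atm-/- and at 0.418 times in Atm+/+. Dlx5 at 24 h stood at 0.449 times its 0 h level in Atm-/-, but at 1.19 times in Atm+/+. Dlx5 was thus the 1 of 10 members at least 2-fold lower in Atm-/- at 24 h (2.5% of probes), and Acan the 1 of 6 in Atm+/+ (2.15%). With 1 array behind each of these values, none has a test of its own.

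**Figure D3:**
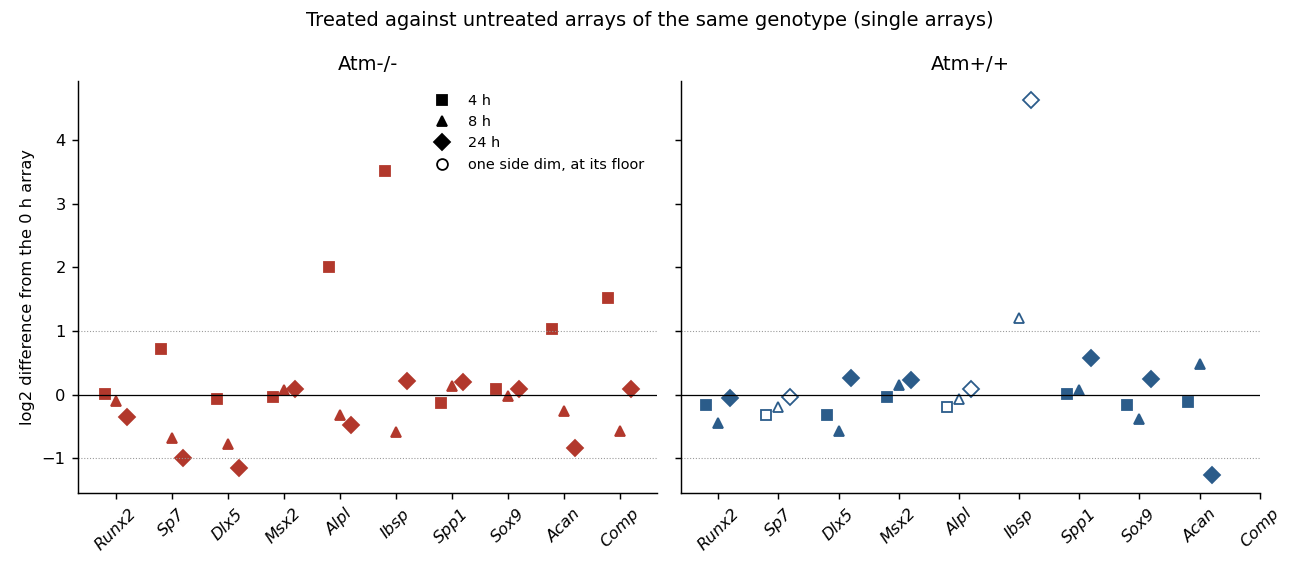
Log2 difference of each treated array from the 0 h array of the same genotype (y axis) for each member (x axis), Atm-/- left and Atm+/+ right, squares at 4 h, triangles at 8 h and diamonds at 24 h, open where one side was dim and set to its floor; dotted lines mark 2-fold. Ibsp, Alpl, Comp and Acan lie above the upper 2-fold line on the Atm-/- 4 h array, and Ibsp on the Atm+/+ 8 h and 24 h arrays.

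On that Atm-/- 4 h array, 6 of the 10 members had their highest level of all 8 arrays, beside 10.2% of probes. Of these, Sox9 was in effect tied, as its 4 h level exceeded its Atm-/- 24 h level by 0.0011. Alpl, Sp7 and Comp cleared the filter through the Atm-/- arrays, so for them a highest level in Atm-/- was partly built in. Among members well above background on all 8 arrays, only Acan and the tied Sox9 were highest there. The members were also chosen with earlier results of these data known. Other genes of cartilage were highest on that array as well, 16 of 24 in the cartilage list with a value on every array. In the osteoblast and bone matrix list 7 of 24 were, and in the list of BMP and Wnt signalling 4 of 24. Of the tested cartilage genes, Matn1, Sox5, Ihh, Snorc, Epyc and Ucma cleared the filter through the Atm-/- arrays. Dmp1, Bmp5 and Dkk1 did so in the other lists. The filter thus favours the cartilage count, and no count over fully measured genes was made. Of the cartilage genes well above background on both arrays, 7 of 24 were at least 2-fold above Atm-/- 0 h at 4 h, beside 0.654% of probes. These 7, named after their values were seen, were Snorc (5.59-fold), Cnmd (4.97-fold), Col9a1 (3.08-fold), Mia (2.89-fold), Col9a2 (2.66-fold), Chad (2.65-fold) and Epyc (2.30-fold). They encode proteins of the cartilage matrix or of chondrocytes, Col9a1 and Col9a2 chains of type IX collagen and Cnmd the chondrocyte protein chondromodulin. In the osteoblast list 0 of 28 genes were at least 2-fold higher on that array, and in the BMP and Wnt list 0 of 28. These lists leave out the members. Of the bone members, Ibsp (11.4-fold) and Alpl (4.00-fold) were at least 2-fold higher there, and Runx2, Sp7, Dlx5, Msx2 and Spp1 were not. At the later times cartilage genes lay lower: 4 of 23 were at least 2-fold below Atm-/- 0 h at 8 h (median -0.35, beside 0.841% of probes), namely Matn1 (0.148-fold), Col9a1 (0.441-fold), Cnmd (0.466-fold) and Chad (0.489-fold). At 24 h 4 of 23 did so (median -0.33, beside 2.5%), namely Matn1 (0.127-fold), Cnmd (0.373-fold), Col9a2 (0.435-fold) and Col9a3 (0.496-fold). The part of the cells that make these transcripts in the members' values at 4 h was not tested.

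**Figure D4:**
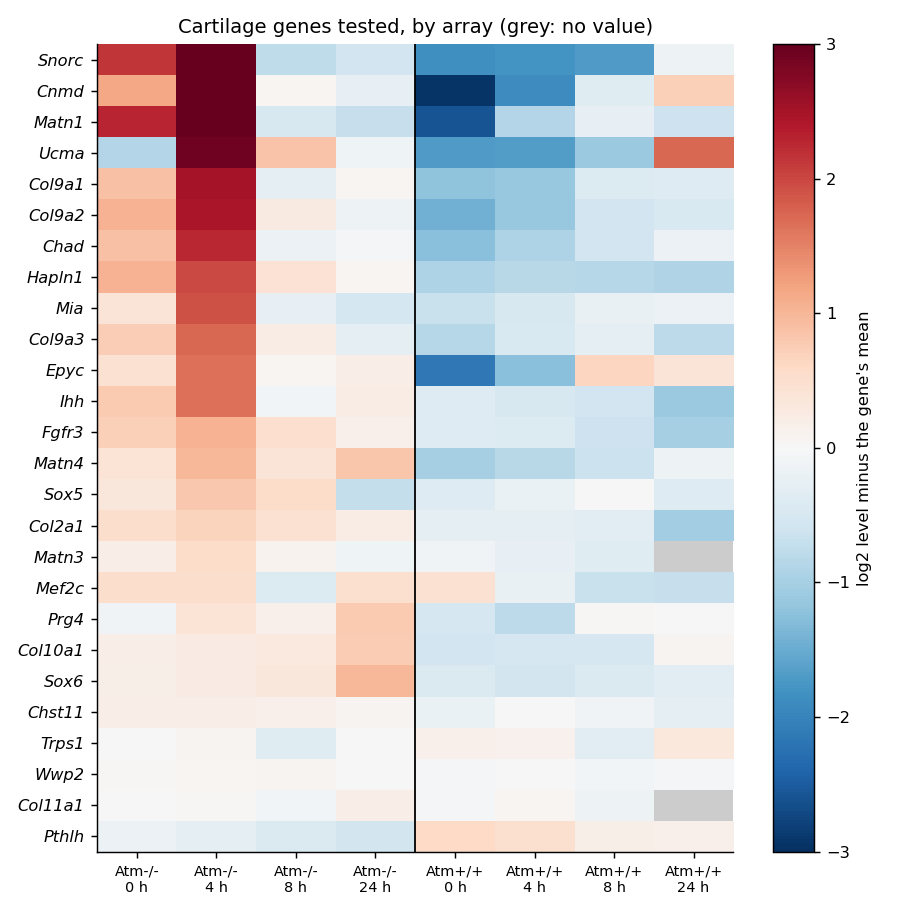
Log2 level minus the gene's mean over the 8 arrays (colour, limited to 3 either way) for the tested cartilage genes, ordered down the map by their Atm-/- 4 h value, on each array (columns), Atm-/- left and Atm+/+ right; dim values are shown as measured. The upper genes of the map are highest on the Atm-/- 4 h array, and Cnmd and Ucma have higher values at 24 h than at 0 h in Atm+/+.

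Between genotypes, the lists around the members differed in direction. Of the 15 cartilage genes well above background on all 8 arrays, 6 were higher in Atm-/- (beside 6.8% of all probes measured as fully). In the same list 1 was lower (beside 7.32%), and the median was 0.94. The highest were Hapln1, which links aggrecan to hyaluronan (1.77 ± 0.32, adjusted p = 0.0262), the matrilin Matn4 (1.32 ± 0.16, 0.00963) and the receptor Fgfr3 (1.21 ± 0.09, 0.00324). Ihh, the hedgehog ligand of growth plate chondrocytes, was dim on all Atm+/+ arrays and was at least 2.01-fold higher in Atm-/-, and no call is made of it, since it entered through the Atm-/- arrays alone. Pthlh, the hormone that restrains chondrocyte maturation, was lower by -0.71 ± 0.07 (0.00516). Col2a1, the main cartilage collagen, was among those higher (0.94 ± 0.10, 0.0076), with levels of 5.17, 5.29, 5.10 and 4.86 in Atm-/-, against 4.35, 4.37, 4.33 and 3.60 in Atm+/+. Col10a1 of hypertrophic cartilage was higher in Atm-/- by 0.75 ± 0.07 (0.00459) and was the only gene of these 3 lists called at 24 h (0.61 ± 0.09, adjusted p = 0.0498).

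Osteoblast and bone matrix genes did not move one way. Of 23 well above background on all arrays, 3 were higher in Atm-/- (beside 6.8% of all probes measured as fully) and 2 were lower (beside 7.32%). The median of the 23 was 0.14. The higher ones were Smpd3, a sphingomyelinase needed for mineralization (1.41 ± 0.09, adjusted p = 0.00257), osteocalcin Bglap (1.01 ± 0.21, 0.0394) and the phosphatase Phospho1 (0.30 ± 0.07, 0.0497). Periostin, Postn, had a fitted difference of -1.21, with values on 2 Atm-/- and 3 Atm+/+ arrays after outlier spots were dropped. These values leave fewer than the 3 residual degrees of freedom of the full fit, so no call is made of Postn. The type I collagen chain Col1a2 was among the lower ones (-0.81 ± 0.11, 0.0127). Bglap had levels of -3.90, -3.01, -3.52 and -2.88 in Atm-/-, against -4.29, -4.66, -4.31 and -4.09 in Atm+/+, with no overlap.

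Of the 22 genes of BMP and Wnt signalling well above background on all arrays, 7 were higher in Atm-/- and 0 lower, with a median of 0.24. The shares of all probes measured as fully were 6.8% higher and 7.32% lower. Smad9, a receptor-activated SMAD of the BMP pathway, was higher by 1.88 ± 0.10 (adjusted p = 0.00214), the inhibitory SMAD Smad6 by 1.42 ± 0.16 (0.00748), the ligand Gdf5 by 1.41 ± 0.17 (0.0092) and the antagonist Noggin, Nog, by 1.39 ± 0.13 (0.00839, with 3 Atm-/- arrays, as the 24 h value was an outlier spot). Smad6 levels were 2.03, 2.10, 2.06 and 1.64 in Atm-/-, against 0.82, 0.29, 0.40 and 0.64 in Atm+/+. Of the other lists, fibroblast markers had 0 of 9 higher and 3 lower (Pdgfra by -1.16, Thy1 by -0.72 and Col3a1 by -0.55). Fat markers had 2 of 4 higher (Pparg by 1.74 and Fabp4 by 1.09). Muscle markers had 2 of 6 higher (Tnnt2 by 0.72 and Des by 0.67) and 1 lower (Myf5 by -0.82). Of all probes tested, 7.28% were called higher and 7.38% lower, and lists this short are not read further. At 24 h the muscle factor Myod1 was called lower (-0.98 ± 0.15, adjusted p = 0.0487).

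**Figure D5:**
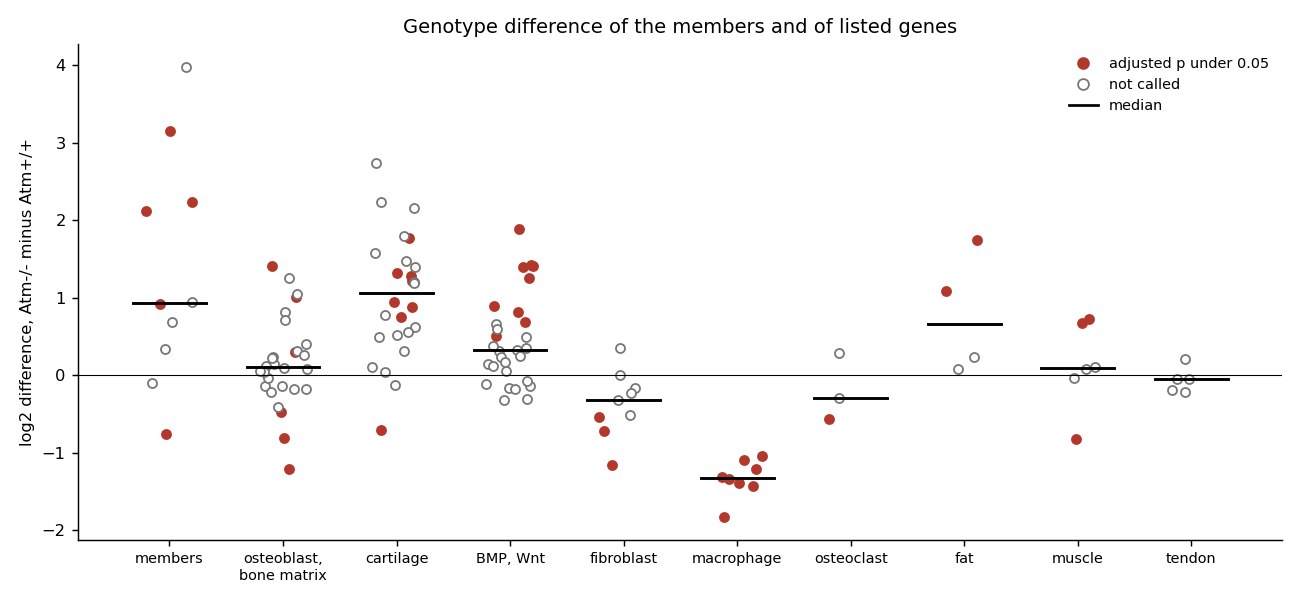
Fitted log2 difference of Atm-/- minus Atm+/+ (y axis) for the members and for the listed genes that were tested (x axis), 1 point per gene, red where the adjusted p was under 0.05, black lines at the medians; dim values enter as measured. Points include genes dim in Atm+/+. Cartilage genes lie mostly above 0 (median 1.06), osteoblast and bone matrix genes about 0 (median 0.10), and all tested macrophage markers below 0 (median -1.32).

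For the 6 members measured on every array, the genes most alike in pattern were found by Pearson's r of the level over the 8 arrays among 11408 genes. They were Tmem117 (r = 0.996), Msln and Adh1 for Msx2, and Pira2 (r = 0.993), Atp8a1 and Trim30a for Spp1. For Dlx5 they were Dtwd2 (r = 0.990), Bin3 and 1810014B01Rik, for Sox9 Slc39a8 (r = 0.980), Plod2 and Mylk, for Runx2 Slc37a1 (r = 0.974), Alg5 and Svs5, and for Acan Fzd9 (r = 0.974), Mrpl51 and Tnnc1. With 8 arrays that share slides and 2 genotypes, such an r describes these arrays only.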

How the data were processed

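RNA of 8 cultures was measured on one-colour Agilent arrays designed on mouse assembly mm9. Per the file headers, Agilent Feature Extraction 10.5.1.1 gave each spot a processed intensity, with background subtracted and no normalization between arrays. Per the labels' protocols, ribosomal RNA was removed and targets were made by random priming along the transcript. The authors' other deposited tables hold none of the member probes and were not used here.

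Control spots were left out, spots of a probe were averaged, and log2 intensity was set relative to each array's 75th percentile. A value was dropped where every spot was an outlier. Probes well above background on at least 2 arrays were kept, 23300 of 37246, of which 16406 had a gene symbol through RefSeq transcripts. limma 3.58.1 in R 4.3.3 was fitted with time point and genotype, leaving 3 residual degrees of freedom, and with genotype by treatment for the difference of response, leaving 2. Fewer were left where a value was dropped. Benjamini-Hochberg adjustment ran over all kept probes with a value, two-sided, with a call at an adjusted p under 0.05. The fit was tested on simulated data. A gene is represented by its probe with the highest mean level. Named list genes are the called ones with the largest differences, at most 4 each way, with Col2a1, Col10a1, Bglap and the 4 h cartilage genes added after their values were seen. A called list gene is not reported here. Alternatives were quantile scaling, normexp background correction with an offset of 50 together with quantile scaling, outlier spots removed first, other filters, moderated variance with trend, and leaving out each time point. The members and lists were chosen with earlier results of these data known.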

Additional observations from a re-analysis of the deposited data

Results flagged for a closer look

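Spp1 on the Atm+/+ 24 h array stood apart from the other Atm+/+ arrays: its log2 level was 7.57, against a next highest of 7.07, and this gap was 0.878 of the whole range of the 4 arrays, above the critical value of Dixon's test. Of 20 sets of 4 arrays examined, this was the 1 past the limit, and chance puts about 1 in 20 there. The Atm-/- 4 h values of Ibsp (0.807) and Alpl (0.805) lay just under it.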

How the results depend on the processing

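The genotype comparison called 5 member probes behind the 2-array filter. It also called 5 with quantile scaling, with normexp and quantile scaling together, with outlier spots removed first and with a trended variance. These settings share that filter, which Alpl, Sp7 and Comp cleared through the Atm-/- arrays, so the steady count is no support for them. With no filter on dim probes it called 4. It called 2 when only probes well above background on all 8 arrays were tested, which leaves 9 member probes, and 1 to 6 when the pair of arrays of one time point was left out (1 without 0 h, 2 without 8 h, 4 without 4 h and 6 without 24 h). The response at 24 h called 0 member probes, but 1, Spp1, with quantile scaling alone and 1 with normexp and quantile scaling together, and 0 in the other alternatives. The responses over all treated times, at 4 h and at 8 h and the difference of response called 0 member probes in every alternative that was run, leave-one-out included (range 0 to 0). Leaving out 0 h gives no response. Runx2 turned to 0.022 without the 24 h arrays (between -0.20 and 0.022 over the time points left out), and the 9 other genes kept the direction of their genotype difference in all alternatives. The cause of these changes was not tested beyond the fewer probes or arrays used. Over all probes, the genotype comparison called 3416, between 1085 without 4 h and 4218 without 24 h, with 2248 after removing outlier spots first and 2130 with no filter. The response at 24 h called 0 probes without 4 h, without 8 h or with no filter, 1146 among probes well above background on all arrays and 1703 with a trended variance. With outlier spots removed first it called 33 in place of 591, of which 93.9% in place of 41.96% were higher, and moved the median of all probes to 0.12 in place of -0.07. With normexp and quantile scaling together the differences of Alpl (1.92), Sp7 (1.30) and Comp (1.02) were smaller. Their adjusted p was under 0.05 behind the same filter, so no call is read from it. The genotype fit sets Atm-/- against Atm+/+ within each time point. No paired analysis was possible by replicate because the labels give no replicate numbers. Signal near background limits Alpl, Sp7, Ibsp and Comp in Atm+/+.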
